A study of Mus musculus with 2 samples.

Results

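The interneurons described here were nuclei of the mouse hippocampus that carried the GABA genes and Lhx6, the transcription factor of interneurons born in the medial ganglionic eminence, but little Sst, the gene of the neuropeptide somatostatin. They were chosen by counts of unique molecular identifiers (UMIs) in each barcode. A barcode with at least 500 detected genes and at most 5% mitochondrial UMIs was a member when Gad1, Gad2 and Slc32a1 summed to at least 4 UMIs, Lhx6 had at least 2, Sst fewer than 3 and Adarb2, a gene of interneurons from the caudal eminence, fewer than 10. The rule found 263 members among 48,103 barcodes within those limits, 150 in the control library and 113 in the library labelled knockout, called the labelled knockout here. Of these, 10 and 6 were called doublets, and the other 247 were used, 140 control and 107 labelled knockout.

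Single-nucleus RNA sequencing compared 2 libraries at postnatal day 19. The control came from Cic flox/flox mice, which carry a floxed allele of Cic, the gene of the transcriptional repressor Capicua. The labelled knockout came from Emx1-Cre; Cic flox/flox mice. By the labels each library held pooled tissue, 1 hippocampus from each of 3 littermates, 2 males and 1 female. Emx1-Cre recombines in the dorsal telencephalic lineage that forms excitatory neurons and much glia, and interneurons of the ganglionic eminences lie outside it. Each group was 1 library. A difference between the libraries therefore has no test, and the 95% intervals given describe counting error alone.

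Interneurons of the medial ganglionic eminence need Lhx6 to migrate and mature. They split into somatostatin cells, which mostly contact dendrites, and parvalbumin cells, which contact the soma or the axon initial segment and fire fast. The hippocampus also holds Lhx6 cells with Lamp5 and Nos1, among them the neurogliaform and ivy cells that release GABA diffusely. Parvalbumin rises late, after birth, so its gene can be low in a young animal. Capicua represses genes downstream of receptor tyrosine kinases, such as the ETS factors Etv1, Etv4 and Etv5, and is relieved when that signalling is active.

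Member nuclei were deep. They had a median of 21251.5 UMIs (10,661 to 72,908) in the control and 17,375 (6494 to 32,304) in the labelled knockout, and their sums were 3,068,926 and 1,930,474 UMIs. By Xist and Y-linked UMIs 37 control members were female and 71 male, against 37 and 52. A further 13 control and 9 labelled knockout members were mixed, carrying UMIs of both kinds, and the rest were not assigned a sex. Mixed members were kept, and the source of the mixture was not tested. Among all barcodes 175 sequences occurred in both libraries, and 2 members carried one of them. One control member stood apart at 72,908 UMIs, where the next deepest had 45,573. It held 7 UMIs of the excitatory gene Slc17a7, 42 of the astrocyte gene Slc1a2, 41 of Xist and 2 of the Y-linked Ddx3y, beside 3 of Lhx6. It was not called a doublet, and results that rest on it are given with and without it.

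Of the marker genes Erbb4 and Pvalb were not used by the rule. Erbb4, the neuregulin receptor of interneurons, had a UMI in 139 of 140 control and 107 of 107 labelled knockout members. It reached 9368 and 10,611 CPM (a gene's UMIs per 1e+06 UMIs of the summed nuclei), against 18.6 and 21.2 CPM in nuclei with at least 3 Slc17a7 and at most 1 GABA UMI, called excitatory nuclei here. Of the 10 listed markers of caudal interneurons only Sp8 was at 0 in the control, and Sp8 and Htr3a in the other library. Without Adarb2, on which both rules select, the other 9 summed to 76.9 and 117 CPM, against 928 and 1050 CPM in nuclei with at least 10 Adarb2 and fewer than 2 Lhx6 UMIs (508 and 535 nuclei, called Adarb2 nuclei). Erbb4 was not among the genes at least 2-fold higher in members than in Adarb2 nuclei of both libraries. Markers of other cells were present. The 9 excitatory genes summed to 387 and 350 CPM (1651 and 1524 in excitatory nuclei), mostly from Camk2a, and to 65.5 and 41.4 CPM without it (607 and 632 in excitatory nuclei). Both sums include Slc17a7, on which excitatory nuclei were selected, so this contrast is partly fixed by the rule. The sum of all 9 had 0 to 75 and 0 to 60 UMIs per nucleus, and Emx1 was at 0 in the labelled knockout. The 5 astrocyte genes summed to 101 and 59.1 CPM with Aldh1l1 at 0 in the latter, and the 5 microglial genes to 64.2 and 64.2 CPM against 6564 and 6407 CPM in microglia. Microglia were selected on Csf1r, Cx3cr1 and P2ry12 of that list, so the contrast is largely fixed by the rule. The 5 oligodendrocyte genes summed to 66.8 and 71.0 CPM, and the endothelial gene Cldn5 was at 0 in both libraries.

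Members made up 0.640% of used control nuclei (0.539% to 0.755%) and 0.521% of those of the labelled knockout (0.427% to 0.629%). Among nuclei with a GABA sum of at least 4 they were 11.1% (140 of 1262) and 8.78% (107 of 1219). The ratio of the shares of used nuclei was 0.814 (0.627 to 1.05), an interval that includes 1. It was 1.00 when 1 Lhx6 UMI was enough and 1.00 when 3 were asked for. Exactly 2 Lhx6 UMIs, just inside the rule, were found in 89 control and 59 labelled knockout nuclei, and exactly 1, just outside, in 185 and 199. Sst at 3 or more kept out 19 and 12 nuclei, and Adarb2 at 10 or more kept out 33 and 24. Among female nuclei alone the shares were 0.573% and 0.589%, and among male nuclei 0.747% and 0.570%. The rule counts raw UMIs, labelled knockout members were shallower as given above, and the part of depth in the shares was not tested.

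Pvalb (ENSMUSG00000005716), the gene of the calcium buffer parvalbumin, had at least 1 UMI in 34 of 140 control members (24.3%, 17.4% to 32.2%) and in 28 of 107 labelled knockout members (26.2%, 18.1% to 35.6%). With at least 2 UMIs the shares were 13.6% (8.37% to 20.4%) and 11.2% (5.93% to 18.8%). No nucleus passed 4 Pvalb UMIs in the control or 6 in the labelled knockout. The level over all members was 22.5 CPM (17.5 to 28.5) and 26.9 CPM (20.1 to 35.3). For background, a Pvalb UMI was found in 1.18% and 2.06% of Adarb2 nuclei (medians of 16775.5 and 14,319 UMIs), in 0.411% and 0.253% of excitatory nuclei (18,612 and 16,882 UMIs) and in 0 of 351 and 0 of 475 microglia. Microglia were shallow, with medians of 2180 and 1783 UMIs.

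Lamp5 (ENSMUSG00000027270), which encodes a membrane protein of neurogliaform and ivy cells, had at least 1 UMI in 28 control members (20%, 13.7% to 27.6%) and in 27 labelled knockout members (25.2%, 17.3% to 34.6%). With at least 2 UMIs the shares were 10% (5.58% to 16.2%) and 16.8% (10.3% to 25.3%), and with at least 3 they were 2.86% (0.784% to 7.15%) and 12.1% (6.63% to 19.9%). The ratio of shares at 2 UMIs was 1.68 (0.791 to 3.65), which includes 1. It was 1.26 at 1 UMI, 4.25 at 3 UMIs and 4.58 at 2 UMIs after thinning to 5000 UMIs per nucleus, the last from 2 control nuclei. Lamp5 was also found outside the Lhx6 cells: 21.5% and 21.9% of Adarb2 nuclei had a UMI of it, and so did 7.80% and 3.63% of excitatory nuclei. None of the 19 and 12 nuclei with 3 or more Sst UMIs (called Sst nuclei) had a Lamp5 UMI.

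A UMI of both Pvalb and Lamp5 was found in 0 of 140 control and 2 of 107 labelled knockout members. The exact intervals reach 2.60% and 6.59% and limit nuclei with both UMIs seen, not nuclei that express both genes, since each gene was seen in few members and mostly at 1 or 2 UMIs. At 2 UMIs, 76.4% and 72.0% of members had neither gene. Thinned to 10,000 UMIs per nucleus, which left out 6 labelled knockout members, Pvalb was found in 15% and 16.8% and Lamp5 in 13.6% and 17.8%. The plot of detection shares shows these values with their intervals.

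**Figure D1:**
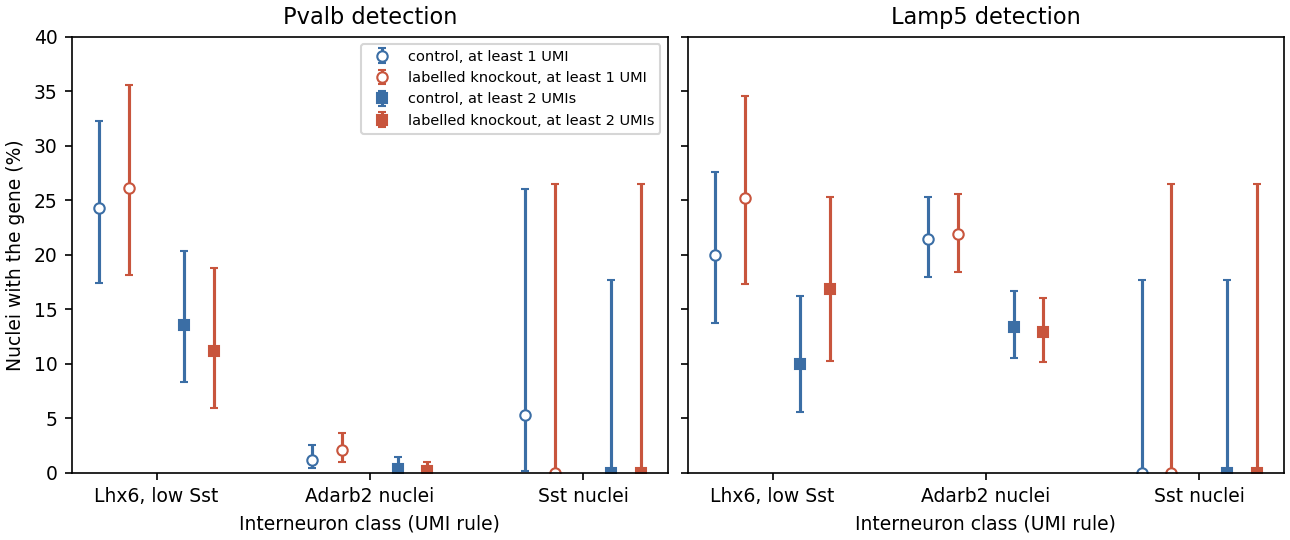
Share of nuclei with Pvalb (left) and Lamp5 (right) in Lhx6 interneurons low in Sst, Adarb2 nuclei and Sst nuclei, in percent. Open circles ask for 1 UMI and filled squares for 2, blue is the control and red the labelled knockout, and bars are exact 95% binomial intervals. Pvalb was found in 24.3% and 26.2% of the Lhx6 interneurons at 1 UMI and in 1.18% and 2.06% of Adarb2 nuclei, while Lamp5 was found in both classes.

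Sst, which the rule limits, is given as a description. In the control 106 members had no Sst UMI, 18 had 1 and 16 had 2, and in the labelled knockout 78, 20 and 9. The summed level was 16.3 and 19.7 CPM. Adarb2 nuclei, nearer to the members in depth, had 3.85 and 2.13 CPM, and Sst nuclei 258 and 293 CPM. The shallow microglia, which do not make somatostatin, had 16.2 and 21.2 CPM from 13 and 19 UMIs. No member with 1 or 2 Sst UMIs had 2 Pvalb UMIs, while 19 and 12 of those without Sst did.

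Members with 1 or 2 Sst UMIs (34 and 29) differed from those with none (106 and 78) in other genes. Each library was compared within itself, and a gene was counted where its higher side held 50 UMIs and 10 CPM or more and the difference reached 2-fold the same way in both libraries. Of 2706 genes so measured, 41 (1.52%) were higher with Sst and 55 (2.03%) without it. Elfn1, a synaptic organiser of somatostatin cells, stood at 124 and 177 CPM with Sst and at 41.8 and 35.3 CPM without. The phosphodiesterase gene Pde1c stood at 134 and 113 CPM against 32.9 and 26.3 CPM. On the other side Gfra1, a co-receptor for GDNF, had 8.58 and 10.3 CPM with Sst and 119 and 63.7 CPM without. The protease gene Tll1 had 42.9 and 34.9 CPM against 222 and 274 CPM. This contrast was chosen after the counts of Sst had been seen.

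To see what the Pvalb and Lamp5 members carry, nuclei with at least 2 UMIs of one gene and fewer than 2 of the other were summed in each library: 19 and 12 on the Pvalb side, 14 and 18 on the Lamp5 side. Of 1008 genes measured in both libraries by the same minimums, 106 (10.5%) were at least 2-fold higher on the Pvalb side of both and 108 (10.7%) on the Lamp5 side of both. The deepest control nucleus, with 4 Lamp5 UMIs, lay on the Lamp5 side, and without it the counts were 120 and 107. With 1 UMI as the minimum the shares were 6.49% and 6.43% of 1788 genes.

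On the Pvalb side the long noncoding 6330411D24Rik led, with 251 and 442 CPM against 0 UMIs on the Lamp5 side of either library. Against a floor of 3 UMIs over the summed nuclei it was at least 27.2-fold and 39.5-fold higher. Gfra1 had 170 UMIs against 1 in the control (log2 ratio 6.27) and 56 against 0 in the labelled knockout. Rnf144b, a ubiquitin ligase gene, stood 5.33 and 5.35 log2 units higher, and Plcxd3, a phospholipase C relative, 5.15 and 5.68. The synaptic adhesion gene Il1rapl2 had 2903 and 1805 CPM against 209 and 78.3 CPM. The cation channel gene Trpc6, Gm1604a, the serotonin receptor gene Htr1f, the kinase gene Nek7 and the calcium channel subunit gene Cacna2d2 followed at smaller log2 ratios of 3.57, 3.13, 3.01, 2.91 and 2.85 in the library where each was lower. The fast-spiking list of 17 genes, which includes Pvalb itself, had 12 with at least 20 UMIs in each library, of which 11 and 12 were above 0 toward Pvalb, with medians of 1.59 and 1.35 where all genes had −0.03 and −0.00. From that list Kcnc2, a Kv3 channel subunit that lets action potentials end fast, had 3441 and 2956 CPM against 719 and 946 CPM. Gria4, a fast AMPA receptor subunit, had 4195 and 4553 CPM against 1524 and 1509 CPM, and the nuclear receptor gene Esrrg 1038 and 825 CPM against 209 and 209 CPM.

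On the Lamp5 side Frem1, an extracellular matrix gene, had 357 and 361 CPM against 0 UMIs, at least 56.8-fold and 32.4-fold higher. Hcrtr2, the orexin receptor gene, had 224 and 350 CPM against 0 UMIs, and the sulfotransferase gene Chst9 206 and 220 CPM against 0 UMIs. Cacna2d1, a calcium channel subunit gene, had 2087 and 2653 CPM against 12.6 and 22.3 CPM. Nos1, which makes nitric oxide and marks ivy cells, had 64 UMIs against 0 in the control and 50 against 1 in the labelled knockout. Trpc5, Sorcs3, Rtl4, Rgs6 and Dchs2 stood lower on the Pvalb side by log2 ratios of −7.15, −5.24, −4.93, −4.68 and −4.56 in the library with the smaller difference. Nrg1, a ligand of Erbb4, had 3276 and 1222 CPM against 138 and 48.3 CPM. The deepest nucleus held 546 of the 1066 control UMIs, and without it the control value was 2060 CPM. It also held 31 of the 73 control UMIs of Hcrtr2, which stood at 166 CPM without it. Reln, an extracellular signal, had 427 and 324 CPM against 14.7 and 44.6 CPM. Gad2, a gene the rule used only as a minimum, had 479 and 786 CPM against 149 and 182 CPM. Npy, often made by ivy cells, had too few UMIs to compare, 1 and 7 on the Lamp5 side and 1 and 2 on the Pvalb side.

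**Figure D2:**
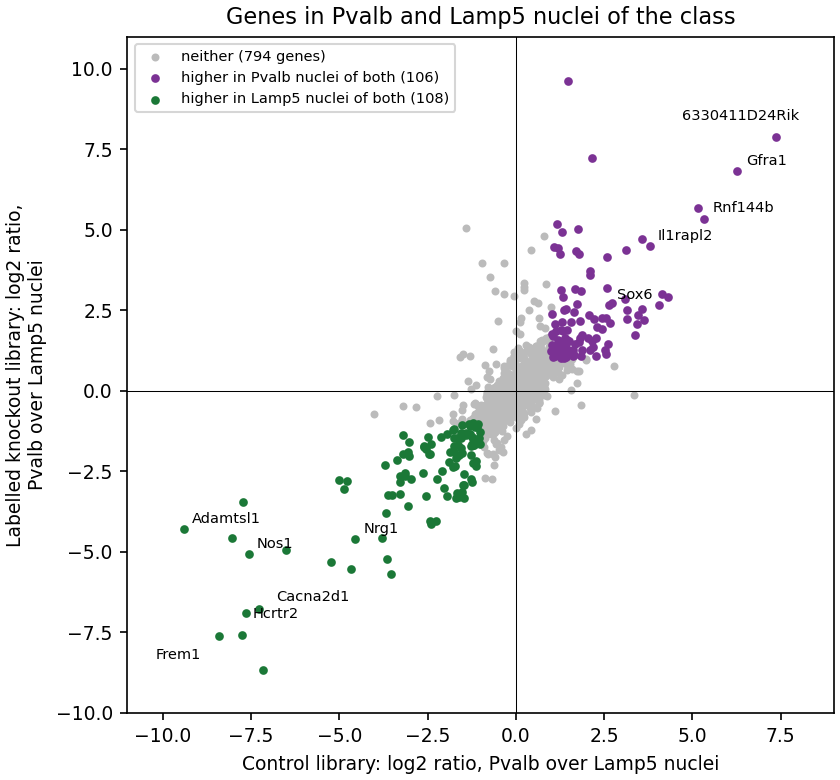
Log2 ratio of Pvalb over Lamp5 members in the control library (horizontal) and in the labelled knockout (vertical), 1 point per gene measured in both. Purple points are the 106 genes at least 2-fold higher on the Pvalb side of both libraries and green points the 108 higher on the Lamp5 side, and the points run along the diagonal.

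The members were also clustered on 2000 variable genes, with mitochondrial, Xist, Tsix and Y-linked ones left out, and fell into 7 subclusters, each present in both libraries. Genes of the clustered nuclei describe the clusters and are no test of them. Subcluster 3, called Lamp5-like (24 and 24 nuclei), held Lamp5 in 18 and 21 nuclei and Pvalb in none. Lamp5, Nos1, the transcription regulator gene Id2, the synaptic vesicle gene Sv2c and Cacna2d1 were at least 2-fold above the other members in both libraries, 5 of the 8 listed Lamp5 and ivy genes with 10 UMIs in the subcluster, where 4.97% of all genes with as many were. The caudal genes Adarb2 (51 and 19 UMIs, log2 2.88 and 2.47) and Cck (11 and 13 UMIs) and the astrocyte gene Slc1a3 (30 and 8 UMIs) were past 2-fold there too. It was led by Frem1, Cacna2d1, Prex2, Chst9, Dchs2 and Pdlim5. Reln, at 359 and 278 CPM, was not above the other members there. It was higher in subcluster 1 (675 and 709 CPM) and subcluster 6 (998 and 928 CPM). Subcluster 5, called Pvalb-high (15 and 8 nuclei), held Pvalb in 11 and 7 nuclei and Lamp5 in none. Of 13 fast-spiking genes with 10 UMIs in it 3 were at least 2-fold above the other members in both libraries, namely Pvalb, Syt2 and Ppargc1a, where 1.63% of all genes with as many were, and none was among its 10 leading genes. Kcnc2 lay below the other members there in both libraries, at 2901 and 2484 CPM (log2 −0.03 and −0.24). Nefm, Nefl and Tac1 also lay below them in both, from few UMIs. Kcnc1, Kcna1, Scn8a, Nefh, Esrrg, Gria4 and Cacna1a lay above them in both, but not past 2-fold in each. Kcna2, Scn1a and Cplx1 lay above in one library and below in the other. Pvalb stood at 81.0 and 79.0 CPM there, and Syt2, a synaptotagmin of fast-spiking terminals, at 128 and 67.7 CPM. Ppargc1a, which governs mitochondrial genes, stood at 410 and 373 CPM. Its leading genes were Aox3, Gfra1, Gna14, Clmp, Arhgap15 and Cacna2d2.

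Another 5 subclusters stayed unnamed. Subcluster 2 (33 and 23 nuclei) held Pvalb in 13 and 10 nuclei and was led by Myo1e, Creb5, Creb3l2, Adgra3, Kcnip4 and Dock4. It had the highest Kcnc2, 5436 and 5290 CPM, and Sox6 at 745 and 800 CPM. Kcnc2 and Syt2 (83.6 and 54.4 CPM) were past 2-fold in both libraries, 2 of 16 fast-spiking genes with 10 UMIs against 2.5% of all such genes, so Syt2 was shared with subcluster 5. Above the other members in both libraries, but not past 2-fold in each, were Kcnc1, Kcna1, Scn1a, Cplx1, Ppargc1a and Esrrg. The same held for Pvalb, Kcna2, Scn8a, Nefh, Tac1 and Gria4. Nefm and Nefl lay below them in the control, and Cacna1a in both libraries. Pvalb and the fast-spiking genes were therefore not particular to subcluster 5. Subcluster 1 (38 and 21 nuclei), led by Olfm3, Man1a, Tafa1, Qrfpr, Gm10754 and Gm49678, and subcluster 6 (10 and 12 nuclei), led by Plpp4, Trhde, Rgs9, Mgat4c, Tmcc3 and Vav3, shared more of the somatostatin list. Of the somatostatin genes with 10 UMIs in subcluster 1, 3 of 7 were past 2-fold in both libraries, against 3.38% of all such genes. In subcluster 6 the count was 5 of 5, against 5.34%. Both counts include Sst, which the rule limits. Calb1, Crhbp, Pnoc and Tacr1 lay below the other members in both libraries of subcluster 1. In that subcluster Sst stood at 32.2 and 41.3 CPM and Elfn1 at 136 and 193 CPM. In subcluster 6 Sst stood at 49.9 and 57.7 CPM and Elfn1 at 127 and 209 CPM. Sst in the other 5 subclusters lay between 0 and 15.8 CPM. Erbb4 was lowest in the same pair, at 2004 and 2434 CPM in subcluster 1 and 1619 and 2513 CPM in subcluster 6, near the 2053 and 2050 CPM of Sst nuclei. In the other 5 it ranged from 9697 to 21,589 CPM. Subcluster 4 (12 and 12 nuclei), led by Pde3a, Nxph2, Sema6d, Hs6st3, Eya4 and Il1rapl2, had Npy at 24.8 and 29.8 CPM from 7 UMIs in each library and Tac1, the tachykinin gene, at 35.5 and 34.1 CPM. Subcluster 7 (8 and 7 nuclei), led by A830036E02Rik, Fras1, Cntnap5b, Pde5a and Trps1, held 12 of the 15 control and 8 of the 8 labelled knockout UMIs of Vipr2, a marker of axo-axonic cells. The axon guidance receptor gene Unc5b stood there at 114 and 63.1 CPM. Only these 2 of the 5 axo-axonic markers reached 10 UMIs in the subcluster, with Pthlh at 1 and 4 UMIs, so it was not named. A Pvalb UMI was also found in 5 and 4 nuclei of subcluster 7 (49.0 and 47.3 CPM), in 3 and 5 of subcluster 4 and in 2 and 2 of subcluster 1. Shares ran from 5.71% to 27.1% of members in the control and from 6.54% to 22.4% in the labelled knockout. For subcluster 3 they were 17.1% (11.3% to 24.4%) and 22.4% (14.9% to 31.5%).

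**Figure D3:**
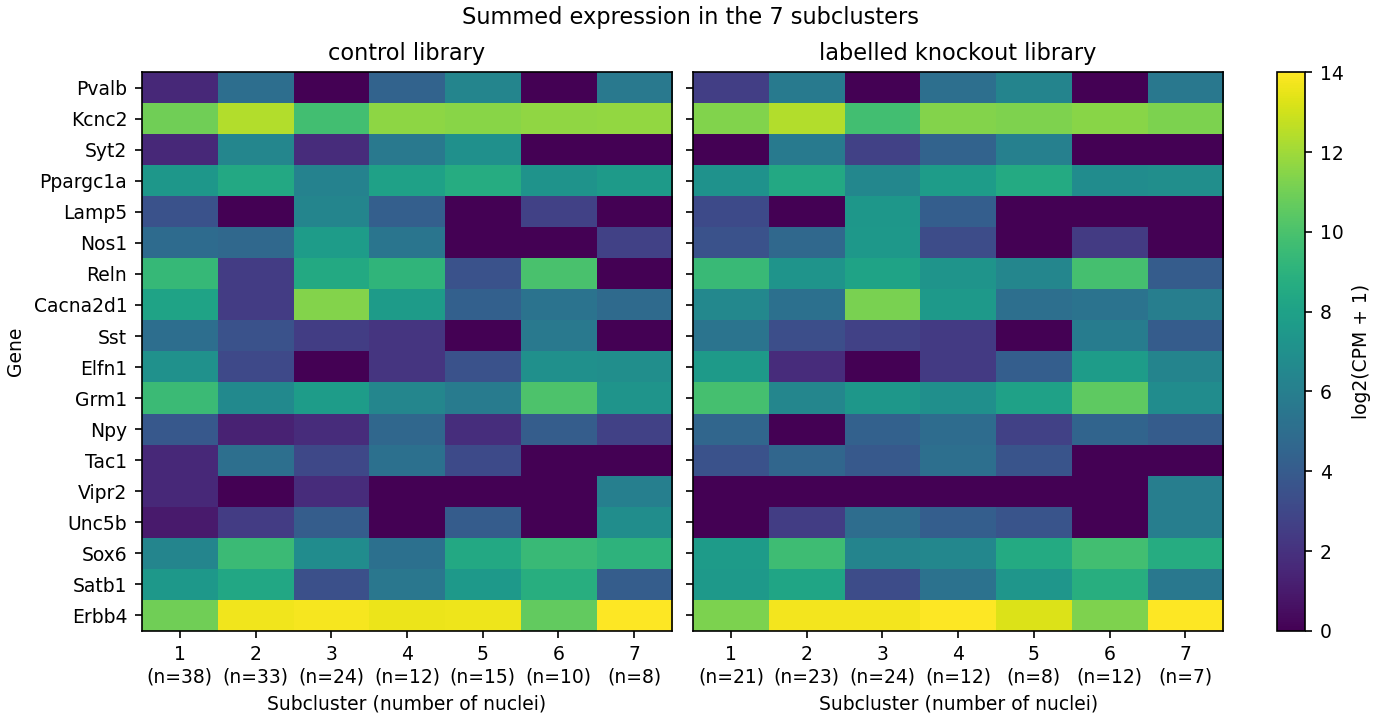
Summed expression of 18 genes in the 7 subclusters, as log2(CPM + 1), for the control (left) and the labelled knockout (right), with the number of nuclei under each column. Lamp5, Nos1 and Cacna2d1 are brightest in subcluster 3, Pvalb in subcluster 5, Vipr2 and Unc5b in subcluster 7, and Erbb4 is dimmest in subclusters 1 and 6.

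Against the Adarb2 nuclei, the other large interneuron class, 157 of 7328 genes measured in both libraries (2.14%) were at least 2-fold higher in the members of both, and 423 (5.77%) were higher in Adarb2 nuclei. Beyond Lhx6, which the rule used, the members led in Vmn1r209, a vomeronasal receptor gene, with 19.9 and 35.7 CPM against 0 and 0.304 CPM. The G protein gene Gna14 stood 5.27 and 5.34 log2 units higher, Pvalb 4.49 and 4.02, and the neurexophilin gene Nxph2 3.43 and 4.09. 9630002D21Rik, Adamts12, Moxd1, Lypd6b, Lypd6 and Cacna2d2 completed the leading genes. Of 8 listed transcription factors of the medial eminence measured in both libraries 4 were higher in both libraries, of which Lhx6 is fixed by the rules. The others include Sox6 (322 and 404 against 60.6 and 75.1 CPM) and Satb1 (184 and 176 against 52.6 and 54.7 CPM). Of 12 fast-spiking genes so measured, Pvalb included, 7 were higher, among them Kcnc1, Kcnc2, Gria4, Esrrg and Ppargc1a, with medians over the list's genes with 20 UMIs of 1.06 and 1.29 against −0.07 and −0.05 over all genes. In the other direction, beyond Adarb2, Gm39185 had 23.4 and 25.8 CPM in Adarb2 nuclei and 0 UMIs in members. Syt6, Cadps2, Sema5b, Smoc2, Prox1os, Ntng1, Ccnjl and the cannabinoid receptor gene Cnr1 were lower in members by 6.18 to 4.07 log2 units in the control. Of 8 listed caudal genes so measured 7 were higher in Adarb2 nuclei, of which Adarb2 itself is fixed by the rules, with Vip at 72.3 and 66.5 CPM against 4.24 and 2.07 CPM.

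Against the Sst nuclei, a small group of 19 and 12, 138 of 2062 genes (6.69%) were higher in the members of both libraries and 40 (1.94%) in the Sst nuclei of both. Tll1 led with 181 and 213 CPM against 0 UMIs, at least 21.5-fold and 15.5-fold higher. Pde11a, a phosphodiesterase gene, had 274 and 253 CPM against 2.80 and 0 CPM. Cacna2d1, Fras1, Sntb1, Chst9, Lamb1, Gm30439, Nfib and Frem1 came next, and Chst9, Cacna2d1 and Frem1 are among the genes named above for the Lamp5 side. Erbb4 was higher by log2 ratios of 2.19 and 2.37. Beyond Sst itself the Sst nuclei led in the channel gene Trpm3, with 1169 and 1591 CPM against 197 and 118 CPM, and in Trhde, with 1228 and 1252 CPM against 230 and 329 CPM. Mgat4c, Tmcc3, Gm28175, the muscarinic receptor gene Chrm3, Ralyl, Npas3, Synpr and Trpc6 followed at log2 ratios between −2.48 and −1.61 in the control. Trhde, Mgat4c and Tmcc3 were also leading genes of subcluster 6.

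Between the libraries few measured genes of the members were 2-fold apart. Of 6162 genes with at least 50 UMIs and 10 CPM on one side, 11 (0.179%) were at least 2-fold higher in the labelled knockout and 24 (0.389%) at least 2-fold lower, 0.568% in either direction and none mitochondrial or sex-linked. Over 6149 of these genes, leaving out mitochondrial and sex-linked ones, the share past 2-fold in either direction was 0.569% in members and 0.146% in Adarb2 nuclei. It was 1.28% in excitatory nuclei and 3.14% in granule nuclei, which are excitatory nuclei with at least 3 UMIs of Prox1, a transcription factor of dentate granule cells. Female members alone gave 1.76% of 2676 genes and male members 0.778% of 3854. The sums of those other classes hold more UMIs, from 9,853,201 to 124,785,839, and the part of counting noise in these shares was not tested.

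Of the 35 genes, 4 higher and 4 lower ones were also at least 2-fold apart the same way in female and in male members. The sexes are parts of the same nuclei, and 50 UMIs were not asked for within each. Female counts were 8 and 3 UMIs for 9630013A20Rik, 12 and 1 for Pdgfd and 7 and 59 for Unc13c. Unc13c, which primes synaptic vesicles, had 31 control and 98 labelled knockout UMIs (log2 ratio 2.31, 1.73 to 2.96), but 51 of the 98 lay in 1 nucleus, and the ratio without it was 1.28. Ankfn1 had 50 and 84 UMIs (1.41, 0.90 to 1.95) in 23 and 19 nuclei. Ostc, a subunit of the oligosaccharyltransferase, had 55 and 71 UMIs (1.03, 0.51 to 1.57) and Gm31218 99 and 132 (1.08, 0.70 to 1.48). In excitatory nuclei the log2 ratios were 1.87 for Unc13c, 1.47 for Ankfn1, 2.10 for Gm31218 and 0.33 for Ostc. In the same order they were 2.19, 1.46, −0.38 and 0.33 in granule nuclei and 0.49, 0.53, 0.27 and 0.08 in Adarb2 nuclei. Among the lower genes, Pdgfd, a growth factor gene, had 53 UMIs in 10 control nuclei and 2 in the labelled knockout (−3.75, −7.14 to −2.14), and the sign turned to 1.76 under a doublet rule by markers that kept only 41 and 45 members. Gm41414 had 81 and 11 UMIs (−2.16), 9630013A20Rik 52 and 12 (−1.40, and −0.58 without the nucleus of most UMIs) and Arpp21, a phosphoprotein gene regulated by cyclic AMP, 362 and 60 (−1.91, −2.34 to −1.53). The deepest control nucleus held 153 of the Arpp21 UMIs, and without it the ratio was −1.16. In excitatory nuclei Pdgfd stood at −0.07, Gm41414 at −0.21, 9630013A20Rik at −0.47 and Arpp21 at 0.05. In Adarb2 nuclei they stood at 0.29, 0.17, 0.93 and 0.15.

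Single nuclei carried many counts of the lower genes: 16 of the 24, and 2 of the 11 higher ones, had over 20% of their UMIs of the higher library in 1 nucleus. With the nucleus of most UMIs left out for each gene, 10 of the 24 lower and 3 of the 11 higher genes remained past 2-fold. Several of the higher genes had lain near 2-fold and moved little, such as Ostc, from 1.03 to 0.98. Without the deepest control nucleus, 9 of the 11 and 16 of the 24 remained. That nucleus held 180 of 386 control UMIs of Hs3st4, 154 of 394 of Gm49678 and 125 of 191 of Pcsk5. Pcsk5 turned from −1.23 to 0.27 without it, and Hs3st4 moved from −1.83 to −0.96. Gm49678, Pcsk5 and Qrfpr were also leading genes of subcluster 1, which held 27.1% of control and 19.6% of labelled knockout members, and its part in their ratios was not tested. Lamp5 was among the higher genes, with 50 UMIs in 28 nuclei and 68 in 27 (1.11, 0.56 to 1.67). Within subcluster 3 it stood at 81.3 and 171 CPM, and the cluster's share was given above. Among the lower genes were the astrocyte gene Slc1a3, with 73 and 20 UMIs, and the excitatory gene Nrgn, with 62 and 18. Astrocyte genes summed to 101 and 59.1 CPM as given above, and the part of other cells' RNA was not tested.

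**Figure D4:**
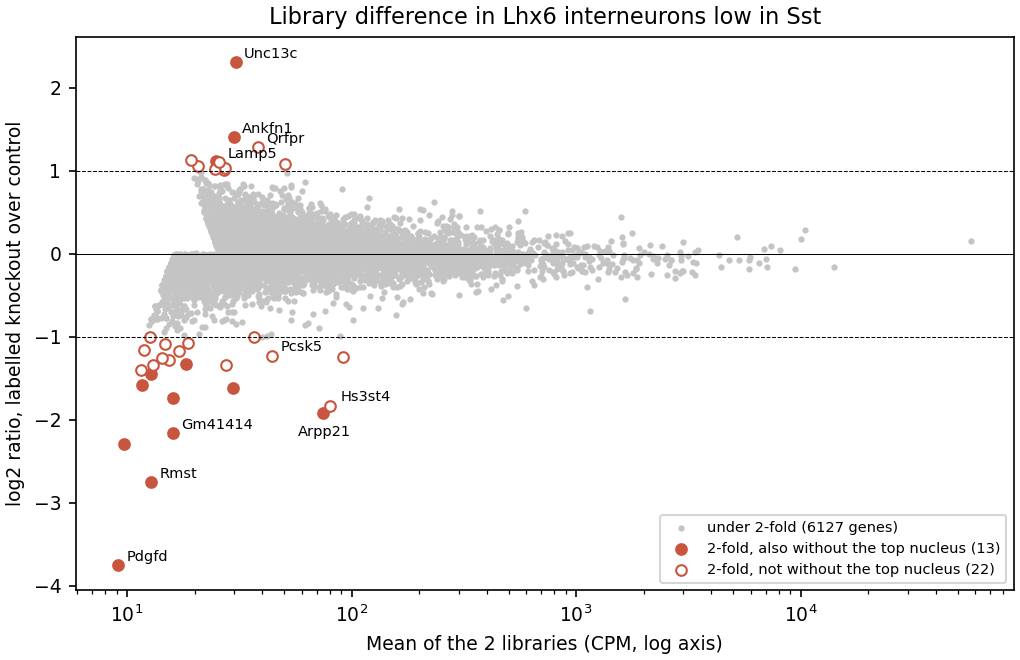
Log2 ratio of the labelled knockout over the control in the members against the mean level (CPM, log axis), 1 point per measured gene, with dashed lines at 2-fold. Filled red points are the 3 higher and 10 lower genes past 2-fold with and without the nucleus that holds most of their UMIs, open ones those that passed only with it, and other genes are grey.

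Cic (ENSMUSG00000005442) had 25 UMIs in 23 control members and 17 in 14 labelled knockout members, or 8.15 and 8.81 CPM (log2 ratio 0.13, −0.87 to 1.06). Gene counts do not show whether floxed exons were present. Of the 14 listed Capicua targets, 8 had at least 20 UMIs over both libraries. None was 2-fold apart, where 1.96% of all 11,230 genes with as many UMIs were at least 2-fold higher and 1.44% lower, so a count of 0 among 8 says nothing about these targets. Of the 8, 2 lay above and 6 below 0, and their median was −0.16 where those 11,230 genes had 0.06. Etv5 had 127 and 45 UMIs (−0.82, −1.35 to −0.33), Spred1 436 and 264 (−0.05), Spred3 105 and 67 (0.02) and Shc3, an adaptor of receptor tyrosine kinases, 385 and 220 (−0.14). Etv4, with 6 and 13 UMIs (1.72, 0.29 to 3.47), was under the minimum. Its 6.73 CPM in the labelled knockout lay below the 24.5 CPM of microglia, and Adarb2 nuclei went from 4.23 to 49.4 CPM.

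Control members carried several genes that granule nuclei carried at high levels in the labelled knockout. This comparison was chosen after the values had been seen, and 16 of its genes were picked on these same libraries for their change in granule nuclei. 9630014M24Rik had 504 UMIs (164 CPM) in control members and 348 (180 CPM) in labelled knockout members. Granule nuclei had 4.29 CPM in the control and 210 CPM in the labelled knockout, so control members stood 5.25 log2 units above control granule nuclei (4.92 to 5.61). With called doublets kept in both classes that difference was 3.58. Microglia had 3.74 and 8.91 CPM. Gm5820 had 57.0 and 57.0 CPM in members, against 2.43 and 84.2 CPM in granule nuclei. Fgf1, a fibroblast growth factor, had 39.1 and 41.4 CPM in members, against 1.81 and 53.7 CPM. Shc3 had 125 and 114 CPM, against 26.3 and 255 CPM, and Spred3, an inhibitor of Ras signalling, 34.2 and 34.7 CPM, against 9.61 and 53.9 CPM. Etv5 had 41.4 and 23.3 CPM, against 3.93 and 93.9 CPM, but microglia also had 41.1 and 104 CPM of it. Adarb2 nuclei shared the pattern in the control, with 88.6 CPM of 9630014M24Rik and 33.6 CPM of Fgf1. Of the 8 listed genes that were higher in granule nuclei of the labelled knockout, 5 had an interval wholly above 0 in control members over control granule nuclei, Camk1g being the fifth. The same held for 4 of the 8 listed genes that were lower there, and for 24.7% of 14,960 genes with at least 20 UMIs. The other 3 of the higher genes were Etv4, Hsd11b1 and Wdr95, with 1.96, 1.30 and 0.652 CPM in control members and 0.930, 2.43 and 2.38 CPM in control granule nuclei. Of 10 measured Capicua targets that were higher in granule nuclei of the labelled knockout, 5 had an interval above 0 in this comparison and 3 below 0. The 3 were Etv1, at 12.4 CPM in control members against 38.8 CPM, Spred2, at 143 against 168 CPM, and Dusp4, at 1.30 against 5.58 CPM. Of the 2 measured targets that were lower in those granule nuclei, Spry2 lay above 0 and Spry1 below.

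**Figure D5:**
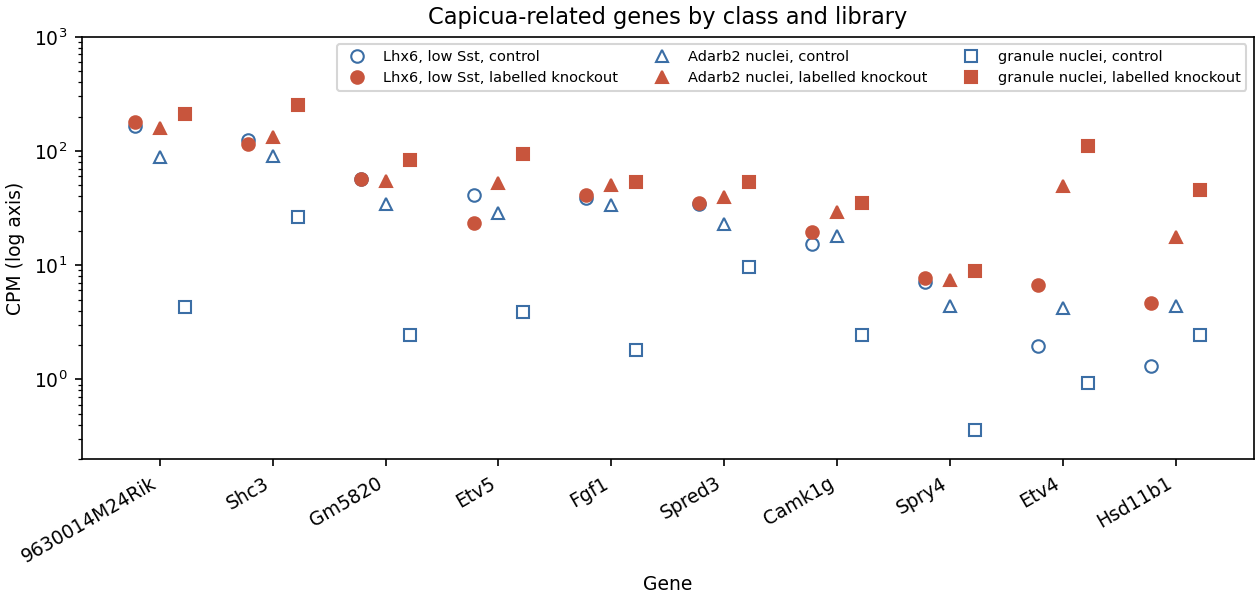
Levels (CPM, log axis) of 10 genes in Lhx6 interneurons low in Sst (circles), Adarb2 nuclei (triangles) and granule nuclei (squares), open for the control and filled for the labelled knockout. For 9630014M24Rik the open circle (164 CPM) lies beside the filled one (180 CPM), while the granule squares lie at 4.29 and 210 CPM.

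Of the other lists, the fast-spiking list had 17 genes measured, 8 above and 9 below 0, with a median of −0.01. Syt2 had 121 and 42 UMIs (−0.85, −1.40 to −0.34), Kcnc2 2953 and 2896 CPM, and Gria4 3200 and 2777 CPM. The list of transcription factors of the medial eminence had a median of 0.32 over 12 genes, one of them Lhx6, on which the rule selects. Without Lhx6 the median over the other 11 was 0.31, but 0.056 in female and 0.0096 in male members, with Sox6 at 322 and 404 CPM and Satb1 at 184 and 176 CPM. Lhx6 itself, chosen by the rule, stood at 116 and 148 CPM. The Lamp5 and ivy list had 8 genes above and 2 below 0, a median of 0.49, and 1 gene of 10, Lamp5, past 2-fold, against the 1.96% given above. Over the same genes the median was 0.19 in females and 0.25 in males, and it was 0.063 after thinning to 5000 UMIs with the minimum of 20 UMIs applied again. Lamp5 stood at 0.94 without its leading nucleus and at 0.41 in female members. The perineuronal net list had a median of −0.12 over 7 genes, with the tenascin gene Tnr at 730 and 563 CPM. The 6 measured ErbB genes had a median of 0.00, with Nrg1 at 582 and 409 CPM, or 414 and 409 CPM without the deepest control nucleus, and Egfr at 53.4 and 36.8 CPM. Immediate early genes were nearly absent: 4 of 12 had 20 UMIs over both libraries, Nr4a1 with 17 and 26 and Junb with 17 and 3.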

How the data were processed

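Nuclei of the pooled hippocampi were counted as UMIs per gene and barcode in the matrices the authors deposited, raw counts with no normalization. Per the submitters' processing notes Cell Ranger 8.0.1 and the genome build mm39 were used. The reference at hand has another build, so no positions or sequences are given. The deposited counts hold 25,907 control and 23,207 labelled knockout barcodes with 314,453,640 and 252,995,761 UMIs. Barcodes with fewer than 500 genes or over 5% mitochondrial UMIs were left out, and so were 3195 and 2512 doublets called by Scrublet in scanpy 1.11.5 at an expected rate of 0.1. That caller reads each library alone, and the deposited labels name no doublet removal.

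UMIs were summed per library and class with Python 3.11.15, numpy 2.4.6, scipy 1.17.1 and pandas 2.3.3. Log2 ratios are of CPM with 0.5 UMI added to each sum. Called by size means at least 50 UMIs and 10 CPM on the higher side and at least 2-fold, which is no test. Lists use genes with at least 20 UMIs. Sums carry exact Poisson intervals, shares Clopper-Pearson intervals, and ratios intervals from the conditional binomial, and a gene at 0 is set against a floor of 3 UMIs over the summed nuclei. Members were clustered on 2000 variable genes, 20 principal components and 10 neighbours with leidenalg 0.10.2 at resolution 0.6. Microglia are nuclei with at least 4 UMIs over Csf1r, Cx3cr1 and P2ry12 and with no UMI of the GABA genes or Slc17a7. They have at most 2 UMIs over the oligodendrocyte, oligodendrocyte precursor and astrocyte genes.

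Members and gene lists were chosen with earlier results of these data known. List genes and the rule's genes could always be named. Between libraries, up to 8 genes per direction were named that differed in both sexes, within-library contrasts named up to 10 per side by the smaller ratio, and subclusters up to 6 leading genes. Gm49678, Pcsk5, Qrfpr and Hs3st4 were named after their values were seen. A few genes are not reported here. Alternatives changed the scaling, the minimums, the doublet rule, the limits of the rule, the sex of the nuclei and the depth. The calculations were tested on simulated data. The simulated gene sums were Poisson draws without spread between nuclei, so they do not cover genes whose UMIs lie mostly in single nuclei.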

Additional observations from a re-analysis of the deposited data

Results flagged for a closer look

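Among 206 genes compared between female and male members, 4 had log2 ratios of labelled knockout over control of opposite sign in the sexes, each with an interval off 0. Females come from 1 mouse per library, and the difference between the sexes was not tested. Brinp3 stood at 0.67 in females (0.35 to 0.99; 139 and 207 UMIs) and −0.25 in males (594 and 281 UMIs). Kcnc2, the Kv3 channel gene, stood at −0.14 in females and 0.10 in males, from 2393 and 2035 and from 4377 and 2626 UMIs. Adra1a, an adrenergic receptor gene, stood at 0.71 (37 and 57 UMIs) and −0.49 (141 and 56 UMIs). Hs3st4 stood at 2.44 (10 and 53 UMIs) and −2.89 (151 and 11 UMIs), and only 17 control and 9 labelled knockout members had a UMI of it.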

How the results depend on the processing

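With 1 library per group no replicate can be left out, and every interval covers counting error only. No paired analysis was possible because each group is 1 library. Of the values that answer a comparison, 62 kept their size under an alternative and 28 moved. The Lamp5 share ratio of 1.68 was 4.25 at 3 UMIs and 4.58 after thinning to 5000 UMIs. The counts of 11 higher and 24 lower genes became 96 and 116 with a minimum of 20 UMIs, 2 and 7 with 100 UMIs and 20 CPM, 2 and 5 after thinning, 33 and 14 in females, and 3 and 10 without each gene's leading nucleus. The higher count was 7 with median-of-ratios or TMM factors (both shift all ratios by −0.07), 7 with doublets kept, 7 with Sst at 0 and 5 in males. Thinning shared 0 of its genes with the original calls, and so did the marker rule for doublets (15 and 20 genes). Females shared 2 higher and 0 lower ones, and males 2 and 3. The lower count was 38 with Sst at 0 and 39 with 3 Lhx6 UMIs, which shared 0 higher and 10 lower genes. The median of the Capicua targets was −0.41 in females, 0.083 in males and −0.37 after thinning, over genes with 20 UMIs in that subset, and 0.10 in males over the 8 genes used for all members. The Pvalb and Lamp5 sides held 65 and 56 genes at 3 UMIs and 179 and 198 at the lower minimum, which gave 864 genes on the Adarb2 side and 73 on the Sst side. Pdgfd turned to 1.76 under the marker rule for doublets. Among single genes and other lists 204 values stayed, 54 moved and 1 reversed. The settings without the deepest nucleus or the leading nucleus, and thinning to 10,000 UMIs, were chosen after seeing the data. The cause of these moves was not tested.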

Other observations

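Of 15 listed receptor genes of neuromodulators only Chrm3 and Grm5 were measured in both libraries in the split at 2 UMIs, and neither was called. With the split at 1 UMI 5 were measured, and Oprd1 and Chrm2 were called on the Pvalb side of both libraries, 2 of 5 where 6.49% of the 1788 genes so measured were. The counts that follow are from the split at 2 UMIs, where each of the 3 genes had fewer than 50 UMIs per side in the labelled knockout. Oprd1, a delta opioid receptor gene, had 62 and 30 UMIs on the Pvalb side and 3 and 0 on the Lamp5 side. Chrm2, a muscarinic receptor gene, had 174 and 45 UMIs against 32 and 7. Htr2c, a serotonin receptor gene, had 0 and 1 UMIs on the Pvalb side and 39 and 15 on the Lamp5 side. By subcluster, Htr2c was not confined to Lamp5 nuclei. Subcluster 2, with Pvalb in 13 and 10 nuclei and Lamp5 in none, held 29 and 37 Htr2c UMIs. Subcluster 3 held 62 and 36. These genes were chosen from the fixed lists after their values were seen.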
